A study of Mus musculus with 8 samples.

Results

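Transcripts of the choroid plexus epithelium were followed in whole brain RNA from mice with an autoimmune attack on myelin. They are 10 genes taken as markers of this epithelium: Ttr, Folr1, Kl, Clic6, Kcnj13, Otx2, Aqp1, Prlr, Sostdc1 and Slc4a5. A gene was measured where the array had a probe set annotated with exactly 1 gene symbol, which held for 8 of the 10 and for 22180 genes in all. The probe set that names Kcnj13 names a second gene as well and was left out, and Prlr was not analysed here. Each of the 8 genes was read by 1 probe set.

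The choroid plexus is a folded epithelium on a core of blood vessels and connective tissue that floats in the brain ventricles. Its cells secrete cerebrospinal fluid by moving ions and water from blood to ventricle, release carrier proteins and growth factors into that fluid, and are sealed by tight junctions that form the barrier between blood and cerebrospinal fluid. In autoimmune inflammation of the brain the plexus is studied as an entry route for T cells.

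Black wild-type mice were set against yellow mice of the line C57BL/6Je/e, called e/e here, in which Mc1r, the melanocortin receptor of pigment cells, does not work. Every mouse had been immunized against a myelin protein, MOG (myelin oligodendrocyte glycoprotein), and the brain was collected at day 14, the peak of disease by the labels. NDP-MSH, a stable peptide related to the hormone alpha-MSH and an agonist of melanocortin receptors, was given into a vein at 5 µg per mouse on days 8, 10 and 12, and the controls of both genotypes had phosphate-buffered saline (PBS). The 2 genotypes and 2 treatments make 4 groups with 2 arrays each, there was no unimmunized group, and the labels do not give age. Nothing in the labels says that the 2 samples of a group were separate animals, so p-values measure only the spread between these samples.

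Values are the authors' processed log values, taken as log2 although their base is not stated, and centred so that each probe set has a median of 0 over the 8 arrays. A value of -0.86 therefore places an array below the middle of the 8 for that gene. Absolute levels cannot be read beyond a coarse band, inferred from the spacing of the values. Before centring Ttr lay at 8 or above and the other measured members at 4 to 8. In whole brain RNA, fewer epithelial cells in the sample and less RNA per epithelial cell cannot be told apart.

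Some arrays differed in regional or sex-linked transcripts. The pituitary hormone transcript Prl was 6.97 for wild-type NDP-MSH 1 and between -0.47 and 0.10 in the other 7 arrays. The mean of 6 cerebellar granule cell markers was -1.91 and -1.61 for wild-type NDP-MSH 1 and 2 and between -0.14 and 0.35 elsewhere. The Y-linked transcript Eif2s3y was high in both e/e arrays after NDP-MSH, at 2.78 and 2.87, and in e/e PBS 2, at 2.04, but not in e/e PBS 1, at -0.02. Xist, transcribed from the inactive X chromosome, was -4.46 and -4.56 after NDP-MSH in e/e mice but -0.82 for e/e PBS 2, which thus carried both signals. In wild-type NDP-MSH 2 it was -0.56, and in the remaining 4 arrays 0.56 to 0.67. The part of sex in the e/e differences was not tested.

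The choroid plexus genes varied mainly between the 2 arrays of a group. Ttr encodes transthyretin, the thyroxine and retinol carrier that the epithelium secretes into cerebrospinal fluid. With replicate 1 given first, Ttr lay at -0.29 and 0.19 after PBS and at -0.86 and 0.05 after NDP-MSH in wild-type mice, and at 0.02 and -0.02 after PBS and 0.23 and -0.35 after NDP-MSH in e/e mice. Its lowest array was wild-type NDP-MSH 1 and the groups compared overlapped in both genotypes.

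Sostdc1, the other secreted protein of the list, is an antagonist of BMP and Wnt ligands. Sostdc1 lay at -0.20 and -0.08 after PBS and at -0.26 and 0.15 after NDP-MSH in wild-type mice, and at -0.03 and 0.15 after PBS and 0.50 and 0.03 after NDP-MSH in e/e mice. It was high in e/e NDP-MSH 1, and both e/e PBS arrays lay above both wild-type PBS arrays.

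Folr1 encodes the folate receptor alpha, which carries folate across the epithelium, and Kl encodes klotho, a co-receptor for FGF23 that is also shed into cerebrospinal fluid. Folr1 lay at -0.07 and 0.20 after PBS and at -0.24 and 0.07 after NDP-MSH in wild-type mice, and at -0.02 and 0.02 after PBS and 0.15 and -0.11 after NDP-MSH in e/e mice. Kl lay at -0.30 and 0.38 after PBS and at -0.70 and 0.21 after NDP-MSH in wild-type mice, and at -0.01 and 0.01 after PBS and 0.14 and -0.25 after NDP-MSH in e/e mice. Both genes were lowest in wild-type NDP-MSH 1 and highest in wild-type PBS 2, as the plot of values by gene shows.

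The transport genes of the list are Slc4a5, a sodium bicarbonate cotransporter of the apical membrane, Aqp1, the apical water channel, and Clic6, a chloride intracellular channel family member. Slc4a5 lay at 0.03 and 0.38 after PBS and at -0.72 and 0.23 after NDP-MSH in wild-type mice, and at -0.03 and -0.10 after PBS and 0.15 and -0.35 after NDP-MSH in e/e mice. Clic6 lay at 0.00 and 0.03 after PBS and at -0.64 and 0.11 after NDP-MSH in wild-type mice, and at -0.18 and 0.02 after PBS and 0.00 and -0.45 after NDP-MSH in e/e mice. Both followed the pattern of Ttr, with their lowest value in wild-type NDP-MSH 1 and the next lowest in e/e NDP-MSH 2.

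Aqp1 had another order. It lay at 0.13 and 0.17 after PBS and at -0.09 and 0.22 after NDP-MSH in wild-type mice, and at 0.01 and -0.01 after PBS and -0.15 and -0.16 after NDP-MSH in e/e mice. Its 2 lowest arrays were those of e/e NDP-MSH, and both e/e PBS arrays lay below both wild-type PBS arrays. Its range over the 8 arrays, 0.38, was close to the median range of all genes, 0.33.

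Otx2 encodes the homeodomain transcription factor that specifies and maintains the plexus. Otx2 lay at 0.03 and 0.41 after PBS and at -0.27 and -0.23 after NDP-MSH in wild-type mice, and at -0.03 and 0.09 after PBS and 0.23 and -0.09 after NDP-MSH in e/e mice. It was low in both wild-type NDP-MSH arrays, the arrays that were low in cerebellar granule cell markers.

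**Figure D1:**
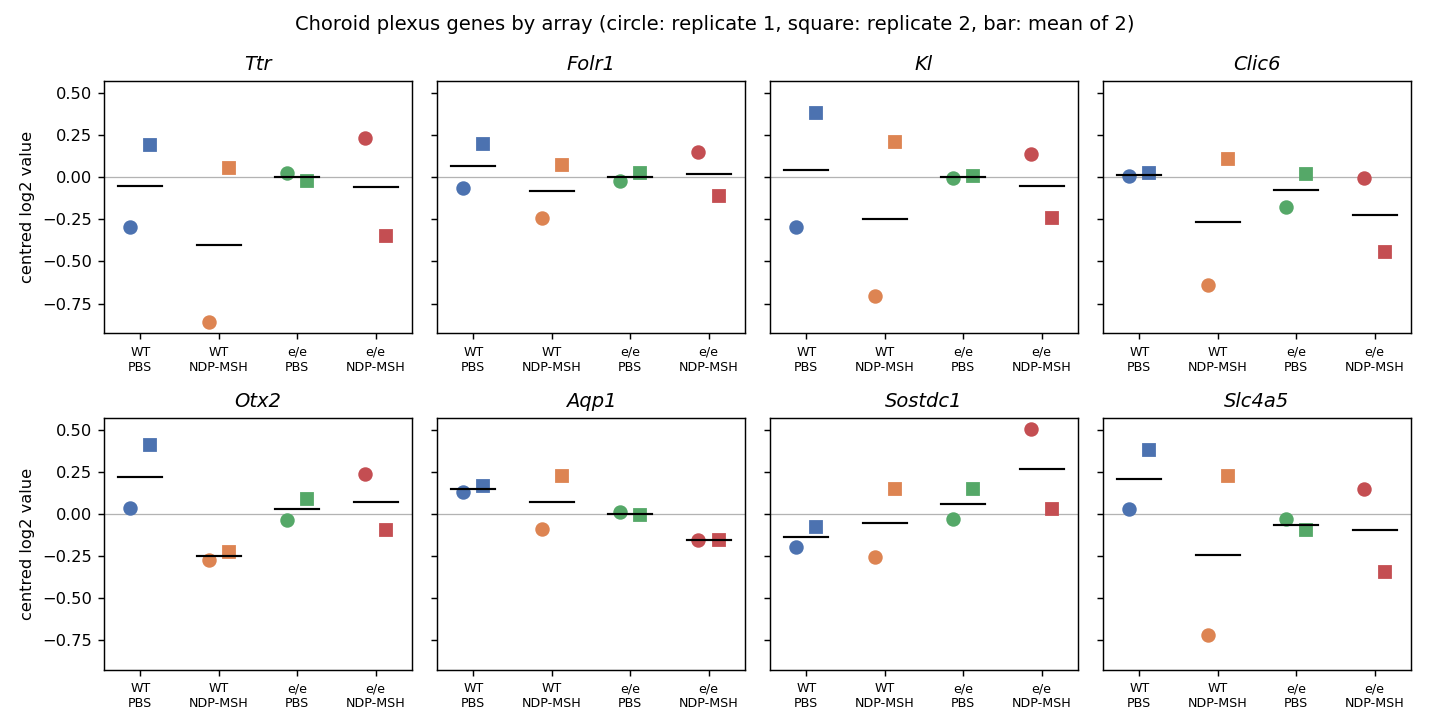
Centred log2 value of each of the 8 measured genes (vertical axis) in the 4 groups, with a circle for replicate 1, a square for replicate 2 and a bar for their mean. Ttr, Kl, Clic6 and Slc4a5 had their lowest value, between -0.86 and -0.64, in wild-type NDP-MSH 1, while Otx2 was low in both wild-type NDP-MSH arrays.

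The spread between replicates was wide for these genes. The median gap between the 2 arrays of a group was 0.58 in wild-type NDP-MSH, 0.41 in e/e NDP-MSH and 0.31 in wild-type PBS, against 0.12, 0.10 and 0.09 over all genes. In e/e PBS, whose arrays differed in Eif2s3y, the median gap was 0.06, against 0.10 over all genes. The direction of the gap was shared: 8 of 8 genes were lower in replicate 1 of wild-type PBS and of wild-type NDP-MSH, and 0 of 8 were lower in replicate 1 of e/e NDP-MSH, where over all genes the shares were 49.5%, 54.5% and 47.6%. In e/e PBS 5 of 8 were lower in replicate 1, against 45.1% of all genes. Over the 8 arrays 6 of the 8 genes had a range above the 90th percentile of all genes, 0.66, with Slc4a5, Ttr and Kl at 1.10, 1.09 and 1.09, Sostdc1 at 0.76, Clic6 at 0.75 and Otx2 at 0.68. The remaining genes, Folr1 and Aqp1, had ranges of 0.44 and 0.38.

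The mean of the 8 genes lay at -0.08 and 0.21 after PBS and at -0.47 and 0.10 after NDP-MSH in wild-type mice, and at -0.03 and 0.02 after PBS and 0.16 and -0.22 after NDP-MSH in e/e mice. The arrays in order from lowest were wild-type NDP-MSH 1, e/e NDP-MSH 2, wild-type PBS 1, e/e PBS 1, e/e PBS 2, wild-type NDP-MSH 2, e/e NDP-MSH 1 and wild-type PBS 2. Both ends of this order held arrays of wild-type mice, and the treated groups each held an array in the lowest 2 and an array in the highest 3, so that neighbouring groups were not separated beyond the spread within a group.

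**Figure D2:**
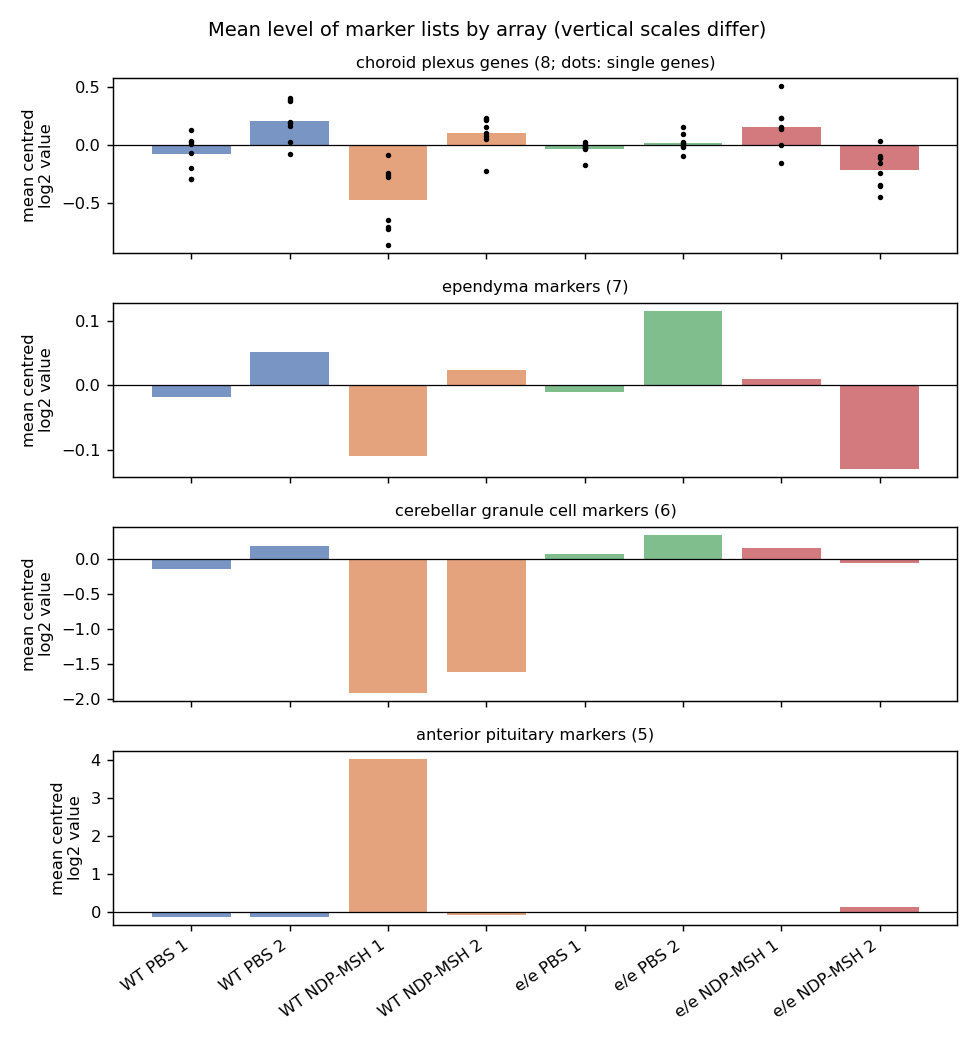
Mean centred log2 value of 4 marker lists (vertical axes, on different scales) in each of the 8 arrays, with dots for the single choroid plexus genes. The choroid plexus mean was lowest, at -0.47, in wild-type NDP-MSH 1, the array in which the pituitary mean was 4.03, whereas the cerebellar mean was low in both wild-type NDP-MSH arrays.

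Markers of neighbouring cells were read in the same arrays. The mean of 7 of 8 ependymal markers, the ciliated cells that line the ventricles, ranged from -0.13 to 0.12 and was -0.11 in wild-type NDP-MSH 1. Within that list Foxj1, the master gene of motile cilia and active in the plexus epithelium too, was -0.35 for wild-type NDP-MSH 1 and between -0.09 and 0.04 elsewhere. It was the lowest of the 7 in that array. Tmem212, Ccdc153, Mia and Hdc lay between -0.20 and -0.08 there, and Rsph1 and Dynlrb2 lay above 0, at 0.09 and 0.03. The means of 8 of 8 fibroblast markers and 6 of 6 endothelial markers lay between -0.19 and 0.15 and between -0.05 and 0.14. The mean of 6 of 6 border macrophage markers was 0.44 and 0.34 in wild-type NDP-MSH 1 and 2 and between -0.19 and -0.02 elsewhere. The mean of 5 of 6 pituitary markers was 4.03 in wild-type NDP-MSH 1 and between -0.14 and 0.13 elsewhere, and the mean of 4 of 4 pineal markers lay between -0.06 and 0.05. Among these Tph1, which makes serotonin, was 0.42 for wild-type NDP-MSH 1 and between -0.06 and 0.03 elsewhere, while Aanat, Asmt and Crx were not high there, at -0.13, -0.01 and -0.16. For red cells 0 of 3 markers were measured. The part of these cells in the level of the choroid plexus genes was not tested.

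Among themselves the 8 genes fell into a tightly coupled set and 3 that followed it less closely, a division made after the values were seen. Ttr, Folr1, Kl, Clic6 and Slc4a5 had Pearson correlations between 0.81 and 0.96 in their 10 pairs over the 8 arrays. Without wild-type NDP-MSH 1 the correlations of these pairs lay between 0.56 and 0.93 over 7 arrays. The division was then no longer clear: Clic6 with Aqp1 was at 0.66 and Folr1 with Otx2 at 0.67, pairs that cross it. Ttr with Folr1 was 0.95 and 0.93 in the 2 calculations, and Folr1 with Kl was 0.96 and 0.93. The shared pattern of Ttr, Folr1 and Kl was therefore also present in the 7 arrays other than wild-type NDP-MSH 1, whereas Clic6 with Kl went from 0.81 to 0.56. All these correlations describe 8 arrays that share 4 groups and a common centring.

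The correlation with the mean of the other 7 genes was 0.97 for Folr1, 0.96 for Ttr and 0.95 for Kl and Slc4a5, 0.88 for Clic6, 0.65 for Otx2, 0.51 for Sostdc1 and 0.38 for Aqp1. Without wild-type NDP-MSH 1 it was 0.98 for Folr1, 0.90 for Ttr, 0.87 for Kl and Slc4a5, 0.70 for Clic6, 0.45 for Otx2, 0.27 for Aqp1 and 0.22 for Sostdc1. Sostdc1 and Aqp1 correlated at -0.29 with each other, and at -0.51 over 7 arrays. Otx2 correlated at 0.77 with the mean of the cerebellar granule cell markers over the 8 arrays, while the other 7 genes lay between -0.17 and 0.59. That mean was far below the rest in both wild-type NDP-MSH arrays, so these correlations largely restate the values there. They were not calculated without wild-type NDP-MSH 1.

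Set against the mean of the other 7 genes in the same array, single genes departed in different arrays. Ttr differed from the others by -0.44 in wild-type NDP-MSH 1 and by between -0.24 and 0.09 elsewhere, so it was lower than the shared level in the array where that level was lowest. This was not particular to Ttr: in that array Slc4a5, Kl and Clic6 differed by -0.28, -0.27 and -0.19. Folr1, Otx2, Aqp1 and Sostdc1 lay above the others there, by between 0.23 and 0.44. Otx2 differed from the others by -0.37 in wild-type NDP-MSH 2 and by 0.23 in wild-type NDP-MSH 1. Aqp1 differed from them by 0.44 in wild-type NDP-MSH 1 and by -0.35 in e/e NDP-MSH 1. Sostdc1 differed by 0.40 and 0.28 in e/e NDP-MSH 1 and 2 and by -0.13 and -0.33 in wild-type PBS.

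**Figure D3:**
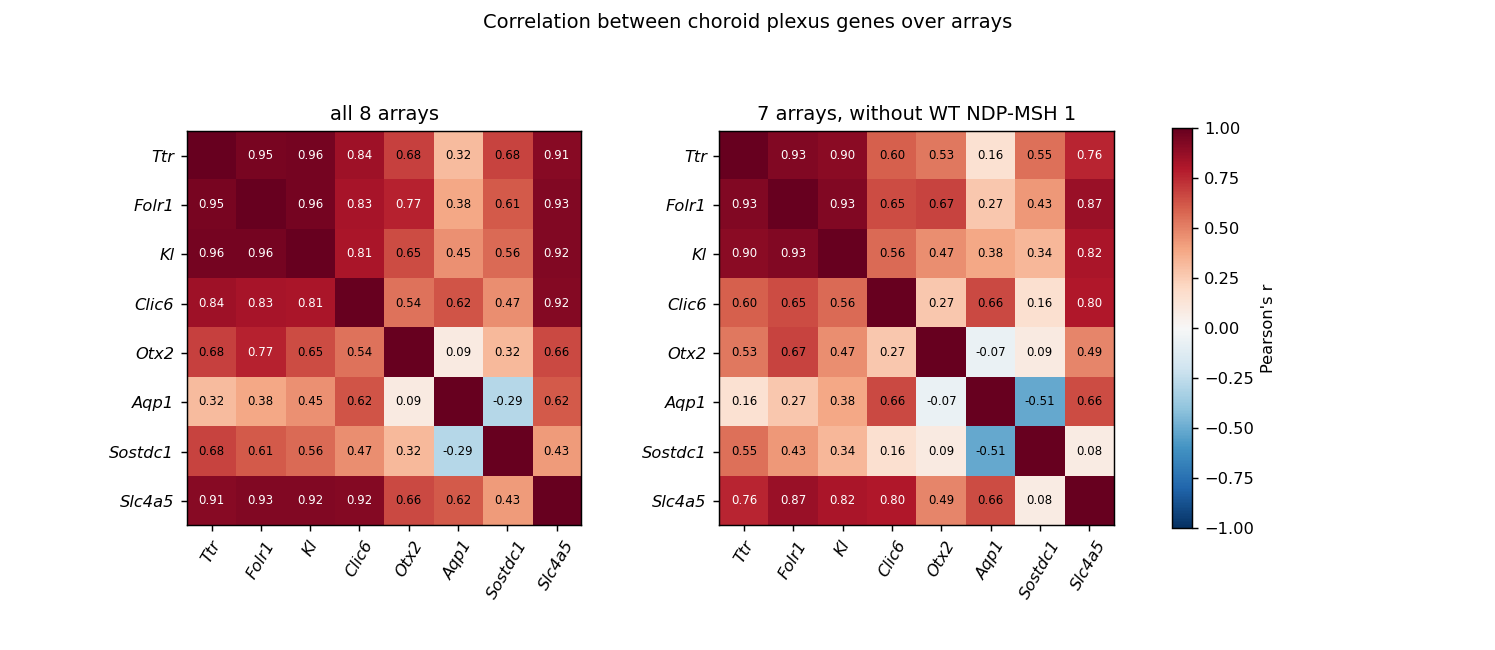
Pearson's r for each pair of the 8 measured genes, over all 8 arrays (left) and over 7 arrays without wild-type NDP-MSH 1 (right), on a colour scale from -1 to 1. Ttr, Folr1, Kl, Clic6 and Slc4a5 form the block of 0.81 to 0.96 on the left, and Aqp1 with Sostdc1 is the lowest pair in both.

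Promoter sequence is shown for members on both sides of this division: Kl and Slc4a5, whose values correlated at 0.92, Aqp1, from outside the coupled set, and Otx2, the transcription factor of the list. From the RefSeq promoter table (GRCm38.p6) 11 starts of 6 of the 10 genes were used, and the 250 bases before a start are given here. Capitals mark the core motif of Otx2, TAATCC or its reverse complement GGATTA, and TGACG or CGTCA, the short motif of CREB, a cAMP-responsive factor downstream of melanocortin receptors. Promoters of Ttr, Folr1, Clic6 and Sostdc1 were not used here.
Kl, chr5:150952357-150952606, plus strand: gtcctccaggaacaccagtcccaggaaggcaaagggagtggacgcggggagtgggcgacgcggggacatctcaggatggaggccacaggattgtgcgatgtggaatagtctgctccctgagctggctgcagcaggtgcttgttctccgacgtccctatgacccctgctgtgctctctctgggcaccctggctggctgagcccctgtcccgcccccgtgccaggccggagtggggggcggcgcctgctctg
Slc4a5, chr6:83237125-83237374, plus strand: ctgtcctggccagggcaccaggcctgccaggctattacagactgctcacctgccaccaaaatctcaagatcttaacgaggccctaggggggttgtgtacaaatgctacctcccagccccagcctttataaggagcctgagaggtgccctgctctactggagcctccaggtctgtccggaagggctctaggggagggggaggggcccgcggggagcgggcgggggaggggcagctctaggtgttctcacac
Aqp1, chr6:55336049-55336298, plus strand: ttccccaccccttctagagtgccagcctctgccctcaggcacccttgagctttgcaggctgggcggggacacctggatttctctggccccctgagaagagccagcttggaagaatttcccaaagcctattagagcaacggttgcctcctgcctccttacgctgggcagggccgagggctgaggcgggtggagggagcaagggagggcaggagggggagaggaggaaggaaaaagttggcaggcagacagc
Otx2, chr14:48665110-48665359, minus strand: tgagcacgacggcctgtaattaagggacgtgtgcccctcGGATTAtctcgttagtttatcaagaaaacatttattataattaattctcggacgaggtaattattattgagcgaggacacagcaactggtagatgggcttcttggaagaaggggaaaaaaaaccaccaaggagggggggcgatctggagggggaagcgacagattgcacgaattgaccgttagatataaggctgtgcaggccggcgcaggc

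The windows of Kl, Slc4a5 and Aqp1 held neither set of letters. Their GC content was 66.8%, 62.8% and 62.0%, against a median of 52.4% over all promoters of this length. The Otx2 start shown, 1 of 4 listed for that gene, held GGATTA with its first base at -211 from the start and had a GC content of 48.4%. On either strand, 6.25% of 32851 promoters held TAATCC and 17.77% held TGACG. Among the 11 starts used 1 held the former and 3 the latter, namely 1 each of Kcnj13, Otx2 and Prlr, and 0 held the full cAMP response element TGACGTCA, which 1.55% of promoters held. A match here is a description of the letters and not a binding site.

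The first comparison asks what NDP-MSH changed in wild-type mice. No measured choroid plexus gene passed the threshold there. By limma 0 of 8 had an adjusted p under 0.05, where 0.176% of all genes did, and 1 of 8, Otx2, had an unadjusted p under 0.05, as did 2733 of all 22180 genes. The difference, NDP-MSH minus PBS, was below 0 for 7 of 8 with a median of -0.29, against a median of 0.02 over all genes, of which 45.0% lay below 0. That median was 0.08 without wild-type NDP-MSH 1 and -0.57 without wild-type NDP-MSH 2, so its direction rested on the array with the high pituitary signal. It was -0.44 without wild-type PBS 1 and -0.08 without wild-type PBS 2.

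Ttr differed by -0.35 ± 0.31 (SE; limma, adjusted p = 0.683), with a 95% interval from -1.08 to 0.38. Slc4a5 differed by -0.45 ± 0.30, Kl by -0.29 ± 0.32, Clic6 by -0.28 ± 0.24 and Folr1 by -0.15 ± 0.14, with limma adjusted p between 0.57 and 0.744. Aqp1 lay at -0.08 ± 0.10 and Sostdc1 at 0.08 ± 0.18. Without wild-type NDP-MSH 1 Ttr lay at 0.11, Slc4a5 at 0.02, Kl at 0.17, Clic6 at 0.09, Folr1 at 0.01 and Aqp1 at 0.08. None of these differences exceeded the spread between replicates, and the intervals of Ttr, Kl and Slc4a5 leave room for a change of more than a log2 unit downward.

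Otx2 had the smallest p among the 8 in wild-type mice and was the gene whose groups did not overlap, both NDP-MSH arrays lying below both PBS arrays. It differed by -0.47 ± 0.15 with a 95% interval from -0.81 to -0.12 (limma, adjusted p = 0.304). Such a separation downward was met by 18.9% of all genes in this comparison, and 1 of 8 is close to that background. In the upward direction 0 of 8 were separated, against 25.3% of all genes. Over 15 alternatives the difference ran from -0.65 to -0.28 with limma adjusted p between 0.276 and 0.8. In the same arrays 6 of 6 cerebellar granule cell markers were lower and 4 of them passed the threshold, with Gabra6 at -3.02 ± 0.20 (limma, adjusted p = 0.00662). The part of cerebellar tissue in the Otx2 value was not tested.

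In e/e mice most of the differences after NDP-MSH were smaller than the gap between the 2 NDP-MSH arrays. By limma 0 of 8 had an adjusted p under 0.05 and 0 an unadjusted p under 0.05, where 0% of all genes passed and 789 had an unadjusted p under 0.05. The median difference was -0.04, with 5 of 8 below 0, against 0.01 over all genes, and it was -0.20 without e/e NDP-MSH 1 and 0.18 without e/e NDP-MSH 2. Ttr lay at -0.06 ± 0.31, Folr1 at 0.02 ± 0.14, Kl at -0.05 ± 0.32, Slc4a5 at -0.03 ± 0.30, Otx2 at 0.04 ± 0.15 and Clic6 at -0.15 ± 0.24. Sostdc1 lay at 0.21 ± 0.18. Aqp1 was the gene whose groups did not overlap, at -0.16 ± 0.10 with a 95% interval from -0.40 to 0.09 (limma, adjusted p = 1), and 14.3% of all genes were separated downward in this way. Upward, 0 of 8 and 16% of all genes were separated.

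**Figure D4:**
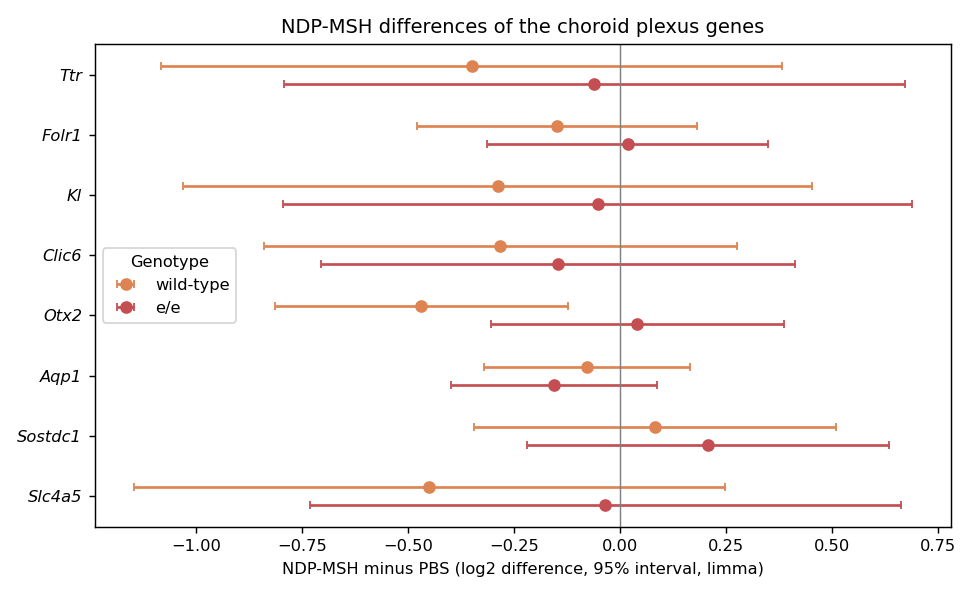
NDP-MSH minus PBS for each gene (horizontal axis, log2 difference) in wild-type and e/e mice, with 95% intervals from the limma fit over all 8 arrays. Every interval reaches 0 except that of Otx2 in wild-type mice, -0.81 to -0.12, which did not pass after adjustment over all genes.

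Whether the NDP-MSH difference itself differed between the genotypes was tested as wild-type minus e/e. By limma 0 of 8 passed the threshold, as did 0% of all genes, and 1 of 8, Otx2, had an unadjusted p under 0.05, against 1711 of all genes. Otx2 lay at -0.51 ± 0.21 (limma, adjusted p = 0.633). For the other 7 genes the value lay between -0.42 (Slc4a5) and 0.08 (Aqp1). The 2 NDP-MSH comparisons share no array. The median over the 8 was -0.20, and it was 0.12 without wild-type NDP-MSH 1.

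Under PBS, e/e and wild-type brains were compared without the peptide, though e/e PBS 2 carried Y-linked signal and the other 3 arrays did not. By limma 0 of 8 genes passed, as did 0% of all genes, and 0 of 8 had an unadjusted p under 0.05, against 1088 of all genes. The groups did not overlap for Aqp1 and Slc4a5, lower in e/e, and for Sostdc1, higher in e/e, where 16.7% of all genes were separated downward and 17.4% upward. Slc4a5 lay at -0.27 ± 0.30, Aqp1 at -0.15 ± 0.10 and Sostdc1 at 0.20 ± 0.18, each with a 95% interval that includes 0. The other 5 differences lay between -0.19 (Otx2) and 0.05 (Ttr).

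Other transcripts of the epithelium and immune genes of leukocyte entry, in 6 lists by role, were set beside the 8 genes. Of the 112 genes on these lists 101 were measured, and 0 passed the threshold in any of the 4 comparisons by limma. Their likeness to the 8 genes was read as the correlation with the mean of the 8 over the arrays. This correlation was above 0.7 for 14 of the 101 (13.9%), with 0 of the 15 leukocyte entry genes among them, and for 1.92% of all other genes. Over the 7 arrays without wild-type NDP-MSH 1 it was above 0.7 for 13 of the 101 and for 2.64% of all other genes, but only 6 genes were above 0.7 in both calculations: Kcne2, Abca4, Cldn2, Ocln, Drc7 and Prr32, named after their values were seen. The other 7 of the 13 were not above 0.7 over 8 arrays, and Foxj1 went from 0.75 to 0.13 (over 7 arrays). In wild-type mice 12.3% of all genes had an unadjusted p under 0.05 and 45.0% were lower after NDP-MSH, and in e/e mice 46.3% were lower. The counts for each list stand against these shares.

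Of all 22172 other genes the most alike was Msx2, a homeobox gene of dorsal midline tissue, with a correlation of 0.96, and 0.92 over 7 arrays. Msx2 lay at 0.00 and 0.17 after PBS and at -0.49 and 0.04 after NDP-MSH in wild-type mice, and at 0.00 and -0.04 after PBS and 0.08 and -0.15 after NDP-MSH in e/e mice. Kcne2, the potassium channel subunit of the apical membrane of the plexus, ranked number 6 at 0.93, and 0.82 over 7 arrays, with -0.62 as its value in wild-type NDP-MSH 1 and 0.27 in e/e NDP-MSH 1. The other 8 of the first 10 were Gm2109, Fbxo17, Nxn, Gm7133, Ssxb1, BC018473, Dnajc5b and Gm8225, with correlations between 0.92 and 0.95. Gm2109 and Gm7133 had ranges of only 0.15 and 0.13 over the 8 arrays.

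Junction genes did not share a pattern with the 8 genes as a list: the median correlation of 15 genes of junctions, keratins and polarity with the mean of the 8 was 0.15, with 3 above 0.7 and 2 below -0.7. Of all other genes 1.92% lay above 0.7, and the share below -0.7 was not counted. The 5 genes past these levels are named after their values were seen. Ocln (occludin) had a correlation of 0.90 and 0.79 without wild-type NDP-MSH 1, Cldn2, the claudin of the leaky plexus barrier that passes cations and water, 0.84 and 0.77, and Cldn1 0.77 and 0.65. In the opposite direction Cgn (cingulin) was at -0.83 and -0.89, and Epcam at -0.79 and -0.36. Over 8 arrays they ranked 22115 and 22056 of the 22172 other genes, counted from the highest correlation. After NDP-MSH Cldn2 was -0.21 and 0.12 in wild-type mice and 0.19 and -0.20 in e/e mice, while the 4 PBS arrays lay between -0.02 and 0.02. By NDP-MSH minus PBS Cldn2 lay at -0.04 ± 0.15 in wild-type and -0.01 ± 0.15 in e/e mice. Of the 15 genes of junctions, keratins and polarity 7 were lower in wild-type and 9 in e/e mice, with medians of 0.02 and 0.00, and 2 (13.3%) had an unadjusted p under 0.05 in wild-type mice. The smallest p values of the list were those of Marveld2 (tricellulin) at -0.50 ± 0.13 and Ezr (ezrin) at 0.43 ± 0.15 in wild-type mice and F11r at -0.48 ± 0.20 in e/e against wild-type under PBS, none past the threshold (limma, adjusted p = 0.239, 0.33 and 0.971). Marveld2 was low in both wild-type NDP-MSH arrays, at -0.62 and -0.67, as the cerebellar markers were.

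Among 11 of 16 genes for secreted proteins and carriers the correlation with the mean of the 8 genes had a median of 0.29 and ran from -0.46 (Vegfa) to 0.83 (Ecrg4, a secreted peptide precursor of the plexus). Ecrg4 and Wfdc2, at 0.80, were the 2 above 0.7, and both are named with Vegfa after their values were seen. Without wild-type NDP-MSH 1 they were at 0.67 and 0.56, and 0 of the 11 lay above 0.7. The median of the 11 was then higher, at 0.48, against 0.02 over all genes. After NDP-MSH Ecrg4 lay at -0.55 and 0.49 in wild-type and at 0.52 and -0.07 in e/e mice. In wild-type mice 3 of the 11 were lower after NDP-MSH, with a median of 0.11, and in e/e mice 3 of the 11, with a median of 0.06. By limma 1 (9.1%) had an unadjusted p under 0.05 in wild-type mice, against 12.3% of all genes. In e/e against wild-type under PBS 3 (27.3%) had one, against 4.9% of all genes. The smallest p values belonged to Igf2, a growth factor of cerebrospinal fluid, at -0.34 ± 0.11 and Lbp at -0.46 ± 0.17 in e/e against wild-type under PBS, and to the protease inhibitor gene Cst3 at 0.45 ± 0.15 in wild-type mice given NDP-MSH. None passed (limma, adjusted p = 0.971, 0.971 and 0.329).

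Of 15 measured genes for ion and water transport (18 listed), 12 were lower in wild-type mice after NDP-MSH and 3 in e/e mice, which is 80.0% and 20.0%, against 45.0% and 46.3% of all genes, with medians of -0.14 and 0.03, and 5 (33.3%) had an unadjusted p under 0.05 in wild-type mice, against 12.3% of all genes. Those closest to the threshold were Kcna1 at -0.46 ± 0.12, Car4, a membrane carbonic anhydrase, at -0.41 ± 0.10 and the calcium pump gene Atp2b3 at -0.37 ± 0.10 (limma, adjusted p = 0.239, 0.239 and 0.244). These 3 were low in both wild-type NDP-MSH arrays, Kcna1 at -0.29 and -0.44 and Car4 at -0.42 and -0.38, where the choroid plexus mean was low in only the first. Their correlations with that mean were 0.22 for Kcna1, 0.56 for Car4 and 0.31 for Atp2b3, and without wild-type NDP-MSH 1 they were -0.24, 0.13 and -0.38.

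Of 18 measured solute carrier genes (19 listed), 10 were lower in wild-type and 5 in e/e mice after NDP-MSH, with medians of -0.01 and 0.02, and 4 (22.2%, against 12.3% of all genes) had an unadjusted p under 0.05 in wild-type mice. Slco1a4, an organic anion transporter shared with brain endothelium, lay at -0.52 ± 0.14 and the reduced folate carrier Slc19a1 at -0.27 ± 0.08 in wild-type mice, and Abcc4, an efflux pump, at -0.21 ± 0.08 in e/e against wild-type under PBS (limma, adjusted p = 0.248, 0.278 and 0.971). Of 28 measured genes among other epithelium-enriched transcripts (30 listed), 15 were lower in wild-type and 15 in e/e mice, with medians of -0.01 and -0.03. An unadjusted p under 0.05 by limma was met by 6 (21.4%, against 12.3% of all genes) in wild-type mice and by 2 (7.1%, against 3.6%) in e/e mice. Htr2c, the serotonin receptor abundant in the plexus, lay at -0.36 ± 0.08 in e/e against wild-type under PBS, Trpm3 at -0.70 ± 0.18 and Foxj1 at -0.26 ± 0.09 in wild-type mice given NDP-MSH (limma, adjusted p = 0.871, 0.239 and 0.348). Trpm3 was low in both wild-type NDP-MSH arrays, at -0.41 and -0.55, as the cerebellar markers were. Its correlation with the mean of the 8 genes was 0.29, and -0.165 without wild-type NDP-MSH 1. After NDP-MSH Htr2c differed by -0.27 ± 0.08 in wild-type mice and by 0.20 ± 0.08 in e/e mice, neither past the threshold. Htr2c correlated at 0.36 with the mean of the 8 genes, and at 0.10 without wild-type NDP-MSH 1. The median correlation of these 28 genes was 0.35, or 0.33 without that array.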

How the data were processed

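The authors' deposited table gave log2 values (base assumed) for 33793 probe sets on 8 arrays, with each row centred on its median (largest absolute row median 5e-07). Total brain RNA was hybridised as biotin-labelled cDNA, per the labels' protocols, while how the probe sets were summarised and normalized is not given in the sources used here. Names came from the platform annotation: 23521 probe sets had 1 gene symbol, 1814 several and 8458 none. Probe sets of a gene were averaged, giving 22180 genes. Limma 3.58.1 in R 4.3.3 fitted the 4 group means on the 8 arrays together, which left 4 residual degrees of freedom. Moderated tests were two-sided, with p adjusted by Benjamini-Hochberg over the 22180 genes and a threshold of 0.05. The fit was tested on simulated data. Correlations are Pearson's r, given without p. The number of arrays limits the precision, and no batch was given to test.

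The members and lists were chosen with earlier results of these data known. Genes named besides the members are the 3 with the smallest p of each wider list and the 10 most correlated with the members' mean; others were named after their values were seen, as the text states. As alternatives each array was left out in turn, the replicate number was used as a block, arrays were weighted, quantile-normalized again or centred on their medians, and the moderation was made robust. The fit was also made on just the 4 arrays of a comparison, on single probe sets, and on probe sets placed at a level of 8 or above. Figures used matplotlib 3.10.9 in Python 3.11.15.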

Additional observations from a re-analysis of the deposited data

How the results depend on the processing

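No choroid plexus gene passed the threshold under any alternative, and 19 differences were followed through 16 alternatives (lowest limma adjusted p = 0.276). In 134 values from alternatives other than leaving out an array 0 changed direction. Of these alternatives only another quantile normalization and centring on array medians altered a difference. The others returned the same difference with another error, so its direction could not change. Of 152 values that left out an array 18 changed direction, 6 of them without wild-type NDP-MSH 1. Leaving out an array outside the groups compared also left the difference as it was. Leaving out each array in turn, the wild-type NDP-MSH difference ran from -0.81 to 0.11 for Ttr, -0.30 to 0.007 for Folr1, -0.75 to 0.17 for Kl, -0.66 to 0.091 for Clic6, -0.23 to 0.077 for Aqp1, -0.12 to 0.29 for Sostdc1 and -0.92 to 0.022 for Slc4a5. In e/e mice it ran from -0.35 to 0.23 for Ttr, -0.11 to 0.15 for Folr1, -0.25 to 0.14 for Kl, -0.37 to 0.075 for Clic6, -0.12 to 0.21 for Otx2, -0.028 to 0.44 for Sostdc1 and -0.28 to 0.21 for Slc4a5. The median of the 8 genes ran from -0.57 to 0.084 in wild-type mice and from -0.52 to 0.12 for the difference between genotypes. With the replicate number as a block Otx2 lay at -0.47 in wild-type mice (limma, adjusted p = 0.33). The numbers are not stated to pair samples, and replicate 1 deviations correlated over genes at -0.10 between the wild-type groups, 0.18 between the e/e groups, 0.44 between the PBS groups, -0.13 between the NDP-MSH groups, and 0.13 and -0.25 between the remaining pairs. The count of all genes past the threshold in wild-type mice, 39, was 14 with that block, 20 after another quantile normalization, 5 in only the 4 arrays compared and 59 at a level of 8 or above, and 0 (without wild-type PBS 2) to 49 (without either e/e PBS array) with an array left out. In e/e mice it was 0, and 0 to 51 with an array left out, the 51 without e/e PBS 1. The filter at 8 or above kept Ttr alone of the 8 genes, the others lying at 4 to 8. Where an array was left out, the lone array of its group was assumed to vary like the other groups.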

Other observations

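Adhesion, chemokine and other immune genes, taken for leukocyte entry at the plexus and other brain borders, were read as a list of their own. Of 15 such genes 5 were lower in wild-type mice after NDP-MSH, with a median of 0.08, and 9 in e/e mice, with a median of -0.14, and by limma 0 passed and 1 had an unadjusted p under 0.05 in each. Selp (P-selectin) lay at 0.33 and -0.36 after PBS and at 1.31 and 0.98 after NDP-MSH in wild-type mice, and at -0.33 and 0.57 after PBS and -0.46 and -0.42 after NDP-MSH in e/e mice. Its NDP-MSH difference, wild-type minus e/e, was 1.72 ± 0.44 (limma, adjusted p = 0.457). In e/e against wild-type under PBS, 4 of the 15 (26.7%) had an unadjusted p under 0.05 by limma, against 4.9% of all genes. Vcam1 lay at -0.36 ± 0.10 and the acute-phase gene Saa3 at -1.45 ± 0.44 in that comparison (limma, adjusted p = 0.888 and 0.93). Saa3 lay at -1.57 in e/e PBS 1 and -0.28 in e/e PBS 2. The median correlation of the 15 genes with the mean of the 8 choroid plexus genes was -0.07, against 0.01 over all genes, and without wild-type NDP-MSH 1 it was 0.13, against 0.02, so its sign rested on that array.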
